A study of Mus musculus with 6 samples.

Results

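The aminoacyl-tRNA synthetases were followed in mouse embryonic fibroblasts (MEFs) of a Kansl1 knockout (KO) and a wild-type (WT) group. Kansl1 encodes a subunit of the NSL complex, a chromatin complex that carries the histone acetyltransferase Kat8. Of the 26898 genes of the expression table, 36 were members, chosen by name. The 20 cytosolic genes and the 16 mitochondrial genes, whose symbols end in ars2, charge tRNA for translation in their compartment. RNA sequencing was available for 6 samples of primary MEFs at passage 3 from C57BL/6 embryos at mid-gestation. All embryos were Kansl1 fl/fl, that is, both Kansl1 alleles carried recombination sites. The WT group (samples 4, 5 and 8) had no Cre recombinase, and the KO group (samples 3, 7 and 10) was Kansl1 fl/fl/CAG-cre, with a tamoxifen-activated Cre under the broadly active CAG promoter. Tamoxifen, at 1 μM for 48 h, was given to both groups, and per the study's methods each group came from 3 embryos or mice. The groups therefore differed in both Kansl1 and Cre, and effects of these cannot be told apart. Bulk RNA was sequenced, so fewer cells of a type and less RNA per cell cannot be told apart either.

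Each synthetase joins one amino acid to the tRNAs that carry it. Mitochondria have their own ribosomes and tRNAs, and most of their synthetases come from separate nuclear genes, made in the cytosol and imported. Gars and Kars supply both compartments from one gene each. Eprs encodes the glutamyl and the prolyl enzyme in one protein, and Farsa and Farsb encode the subunits of a single cytosolic phenylalanyl enzyme. Several cytosolic synthetases are held in one multisynthetase complex, and all synthetases belong to one of 2 structural classes with unrelated folds. Many cytosolic synthetase genes are targets of Atf4, a transcription factor induced by the integrated stress response.

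The values were in TPM, a unit of transcript abundance in which reads are divided by gene length and scaled to one total per sample. Kansl1 itself fell from 28.5, 26.7 and 24.4 TPM in the WT samples to 13.7, 15.8 and 14.4 TPM in the KO samples, a KO mean of 55.1% of WT (limma adjusted p = 0.000859). These are values for the whole gene, in which the deleted part cannot be seen on its own. Esr1, a fragment of which is part of tamoxifen-activated Cre proteins, stood at 0.154 to 0.192 TPM in WT and at 20.8 to 23.3 TPM in KO. Recovered reads per library ranged from 17655495 in KO 3 to 27718259 in KO 7. One small-RNA gene locus, Gm23935, took 15.5% to 25.6% of all TPM, most in WT 8 and KO 3. KO 7 was the single library with Xist RNA (117 TPM) and with Ddx3y at 0, so it differed in sex from the other 5. All 12 fibroblast markers passed the low-value filter and none was called (1 higher at an unadjusted limma p under 0.05), with summed levels of 10743 to 15813 TPM in WT and 11590 to 15337 TPM in KO. Summed macrophage markers were 35.2 to 40.2 TPM in WT and 74.8 to 150 TPM in KO, with 1 of the 7 tested called, Lyz2, from a mean of 22.5 to 73.6 TPM (limma adjusted p = 0.00142). In 6 of these 7 every KO sample was above every WT sample, against 13.3% of all genes tested, and the same number was higher at an unadjusted limma p under 0.05, against 12.2%. Summed endothelial markers were 2.31 to 5.57 TPM in WT and 3.13 to 4.70 TPM in KO, epithelial 40.4 to 45.8 and 49.4 to 66.5 TPM, neural 56.2 to 76.1 and 68.0 to 97.0 TPM, muscle 81.7 to 109 and 71.3 to 88.8 TPM and erythroid 0.346 to 0.837 and 0.606 to 1.01 TPM, and none of the 9 genes of these lists that passed the low-value filter was called. They were 2 endothelial, 2 epithelial, 3 neural and 2 muscle genes and 0 erythroid genes. Both epithelial genes and the endothelial gene Kdr were wholly higher in KO, against 13.3% of all genes tested. These and the neural gene Tubb3 were higher at an unadjusted limma p under 0.05, against 12.2%, and none of these lists had a gene lower at that level. The part of the markers, Gm23935 and sex in the results below was not tested.

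Promoter sequence was read for the 27 members that had a window in RefSeq (build GRCm38.p6), 250 bases before to 50 bases after the gene start. Cars, Hars, Lars, Nars, Rars, Vars, Wars, Hars2 and Pars2 had no window. The windows of Aars and Gars are shown because they hold the motif that separated the 2 compartments most, and those of Aars2, Fars2, Sars2 and Vars2 because these are the members that fell and have a window. Capitals mark matches, on either strand, to TGATGNAA, which resembles the elements bound by Atf4, to CACGTG, the E-box bound by Myc and related factors, or to GCATGCGC, which resembles the Nrf1 site. The windows lie at chr8:111033592-111033891 on the plus strand for Aars, chr6:55037751-55038050 on the plus strand for Gars, chr17:45506582-45506881 on the plus strand for Aars2, chr13:36117393-36117692 on the plus strand for Fars2, chr7:28741718-28742017 on the plus strand for Sars2 and chr17:35667543-35667842 on the minus strand for Vars2, each printed 5′ to 3′.
Aars: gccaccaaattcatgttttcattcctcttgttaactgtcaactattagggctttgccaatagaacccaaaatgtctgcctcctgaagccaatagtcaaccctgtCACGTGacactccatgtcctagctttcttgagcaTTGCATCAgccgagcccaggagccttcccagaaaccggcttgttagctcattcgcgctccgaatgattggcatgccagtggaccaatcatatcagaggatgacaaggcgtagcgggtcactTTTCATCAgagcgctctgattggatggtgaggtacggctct
Gars: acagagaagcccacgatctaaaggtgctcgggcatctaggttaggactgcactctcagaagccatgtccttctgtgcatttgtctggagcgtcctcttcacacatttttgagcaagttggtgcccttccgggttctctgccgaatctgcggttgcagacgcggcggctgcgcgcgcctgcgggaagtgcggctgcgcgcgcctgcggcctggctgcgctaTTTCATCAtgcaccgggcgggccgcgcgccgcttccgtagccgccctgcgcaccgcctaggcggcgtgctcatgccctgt
Aars2: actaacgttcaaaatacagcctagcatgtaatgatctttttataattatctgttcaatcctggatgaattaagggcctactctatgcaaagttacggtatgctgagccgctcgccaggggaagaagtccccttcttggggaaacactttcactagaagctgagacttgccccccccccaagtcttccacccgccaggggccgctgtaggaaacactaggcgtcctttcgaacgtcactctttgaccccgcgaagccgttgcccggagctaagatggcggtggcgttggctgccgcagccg
Fars2: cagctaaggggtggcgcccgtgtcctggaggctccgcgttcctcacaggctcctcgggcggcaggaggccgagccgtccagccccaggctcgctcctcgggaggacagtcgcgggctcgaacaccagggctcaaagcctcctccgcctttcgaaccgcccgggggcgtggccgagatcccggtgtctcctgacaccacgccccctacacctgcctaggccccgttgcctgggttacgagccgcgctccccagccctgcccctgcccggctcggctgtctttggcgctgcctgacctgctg
Sars2: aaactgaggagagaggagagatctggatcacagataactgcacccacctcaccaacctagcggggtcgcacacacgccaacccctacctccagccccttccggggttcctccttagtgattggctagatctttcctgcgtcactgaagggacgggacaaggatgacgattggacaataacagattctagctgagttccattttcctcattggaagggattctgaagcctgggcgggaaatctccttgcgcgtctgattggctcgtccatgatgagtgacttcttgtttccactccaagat
Vars2: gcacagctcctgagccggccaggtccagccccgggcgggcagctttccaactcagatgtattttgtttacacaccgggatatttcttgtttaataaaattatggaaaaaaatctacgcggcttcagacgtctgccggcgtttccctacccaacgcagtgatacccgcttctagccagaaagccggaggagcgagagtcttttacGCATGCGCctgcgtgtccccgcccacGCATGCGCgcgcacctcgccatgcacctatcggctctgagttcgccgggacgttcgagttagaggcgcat

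TGATGNAA (reverse complement TTNCATCA) was present in the windows of 5 of 13 cytosolic members (Aars, Gars, Iars, Tars and Yars) and of 0 of 14 mitochondrial members. It was present in 3.97% of all 32851 windows. Aars2 had 2 overlapping windows, of which the first is printed. CACGTG was present in the cytosolic windows of Aars, Farsb, Iars and Tars and in the mitochondrial window of Ears2, against 7.15% of all windows. GCATGCGC (reverse complement GCGCATGC) was present in 0 cytosolic windows and in those of Rars2, Vars2 and Wars2, against 2.71% of all windows. CCGGAAGT, an Ets-type site, was found in the windows of Farsa, Mars and Rars2, against 3.89% of all windows. TGACGTCA, the cAMP response element, was found in no member's window and in 1.79% of all windows. The windows of Aars2, Fars2 and Sars2 held none of these 5 motifs. No binding was measured in these samples, so the matches are a description of the sequence.

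The members differed in level by compartment before any comparison of the groups. In WT MEFs, cytosolic members had means of 37.5 TPM (Farsa) to 319 TPM (Nars), with a median of 95.3 TPM. Mitochondrial members had a median of 8.52 TPM, and all but one lay between 3.12 TPM (Nars2) and 32.8 TPM (Iars2). The exception was Lars2, the leucyl enzyme of mitochondria, at 338 TPM. TPM is a level per length, here the length of all annotated exons of a gene. The transcripts made in these cells can be shorter, so levels of different genes compare only roughly. The coefficient of variation among WT samples had a median of 9.33% for cytosolic and 9.59% for mitochondrial members, and among KO samples of 12.8% and 13.6%. Reads behind each value ran from 937 to 15241 for cytosolic members and from 33 (Fars2 in KO 3) to 43048 (Lars2) for mitochondrial members, so the low mitochondrial genes rest on fewer reads.

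**Figure D1:**
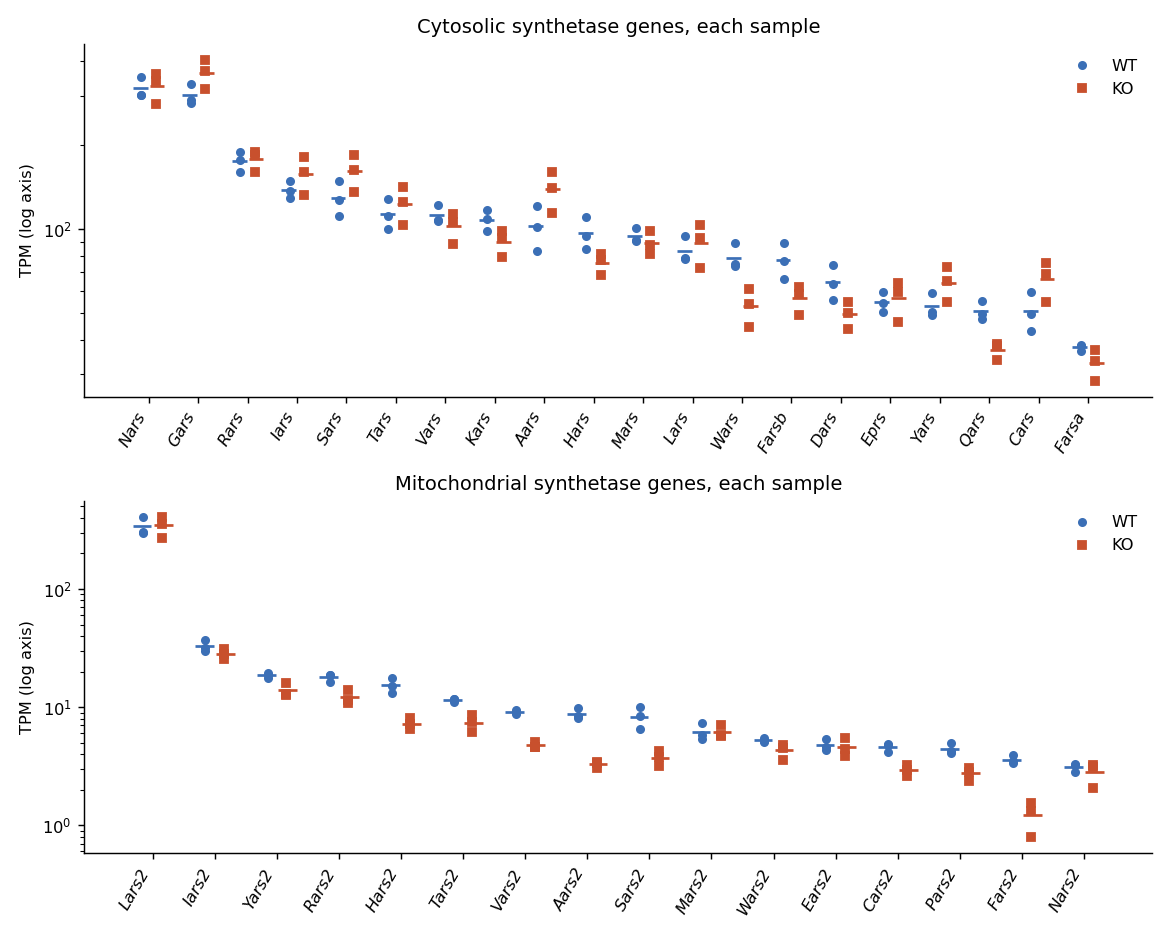
TPM on log axes for the 20 cytosolic (top) and 16 mitochondrial (bottom) synthetase genes, ordered by WT mean. Circles are the 3 WT samples, squares the 3 KO samples and short lines the group means. The KO squares of Aars2, Fars2, Hars2, Sars2 and Vars2 lie below all WT circles, while those of Gars, Nars and Lars2 overlap the WT range.

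The main comparison asked which synthetase transcripts differed between KO and WT MEFs. Of the 16 mitochondrial members, 5 fell in KO, namely Aars2, Fars2, Hars2, Sars2 and Vars2, and none rose. Of the 20 cytosolic members, none was called in either direction. A gene was called at a limma adjusted p under 0.005 with a log2 fold change beyond 0.5 in size, on the log2(TPM + 1) scale, where changes of low genes come out too small. Over all 14799 genes tested, 9.03% were called lower and 1.64% higher. The mitochondrial share, 5 of 16 or 31.2%, lay above that background, and the cytosolic share of 0 lay below it. Among the genes in the range of mean level of the mitochondrial members other than Lars2 (2.40 to 30.5 TPM), 13.7% were called lower. In the range of the cytosolic members (35.2 to 333 TPM), 4.02% were called lower.

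Aars2, the alanyl enzyme of mitochondria (chr17:45506841-45520843, plus strand, GRCm38), had the largest fitted change of the members on the log2(TPM + 1) scale. With a pseudocount of 0.1 in place of 1, Fars2 had a larger change (-1.53 against -1.39 for Aars2). The same held in the voom test on recovered reads (-1.55 against -1.40). Aars2 measured 8.11, 9.81 and 8.34 TPM in WT samples 4, 5 and 8 and 3.03, 3.44 and 3.34 TPM in KO samples 3, 7 and 10. The groups lay far apart, with the highest KO sample below the lowest WT sample and a KO mean at 37.4% of WT. Its log2 fold change was -1.19 ± 0.13 (SE, limma adjusted p = 0.000379), and it was called under each alternative that kept it, including each fit that left out 1 sample.

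Fars2, the phenylalanyl enzyme of mitochondria (chr13:36117412-36726280, plus strand), was the lowest member in KO. It measured 3.95, 3.47 and 3.34 TPM in WT and 0.790, 1.31 and 1.54 TPM in KO, a KO mean at 33.8% of WT, the smallest share that remained for any member. The log2 fold change was -1.06 ± 0.18 (SE, limma adjusted p = 0.00268). These values rest on 175 to 184 reads per WT sample and on 33, 73 and 79 reads in KO samples 3, 7 and 10. The call was lost in 5 of the 6 fits that left out a sample (without WT 4, WT 5, WT 8, KO 3 or KO 7, limma adjusted p from 0.0072 to 0.00881), while the fold change stayed between -1.10 and -0.92 in those fits. On the opposite strand, exons of Nrn1 overlap 501 bp and those of Lyrm4 115 bp of its exons.

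Hars2, the histidyl enzyme of mitochondria (chr18:36783008-36792562, plus strand), measured 17.8, 14.98 and 13.2 TPM in WT and 6.55, 8.10 and 7.15 TPM in KO. The KO mean stood at 47.4% of WT, and no KO sample reached the lowest WT sample. The log2 fold change was -0.98 ± 0.14 (SE, limma adjusted p = 0.00111), and the call was lost without KO 3 (limma adjusted p = 0.00533). Hars2 lies head to head with Hars, its cytosolic counterpart, and their exons overlap by 195 bp on opposite strands. Hars measured 111, 94.6 and 84.9 TPM in WT and 68.3, 81.0 and 77.4 TPM in KO, so both genes of this pair had lower values in every KO sample than in any WT sample, but Hars was not called (log2 fold change -0.35 ± 0.12, SE, limma adjusted p = 0.0594). The strand used in counting is not given in the sources used here, and reads from the shared stretch cannot be assigned.

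Sars2, the seryl enzyme of mitochondria (chr7:28741992-28753871, plus strand), measured 6.48, 9.98 and 8.37 TPM in WT and 3.15, 4.27 and 3.75 TPM in KO. In proportion to its mean it had the widest spread among WT samples of the 5 genes that fell, yet the groups did not overlap. The KO mean was 45.0% of WT, with a log2 fold change of -0.96 ± 0.17 (SE, limma adjusted p = 0.00299). This call stood close to the threshold. It was lost with median-of-ratios scaling (limma adjusted p = 0.00539), with no variance trend (limma adjusted p = 0.00528), and without WT 5, WT 8, KO 3, KO 7 or KO 10 (limma adjusted p from 0.00593 to 0.0134). Over all its alternatives the adjusted p ran from 0.00191 to 0.0188.

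Vars2, the valyl enzyme of mitochondria (chr17:35655634-35667592, minus strand), measured 8.68, 9.40 and 9.15 TPM in WT and 4.58, 5.10 and 4.55 TPM in KO. Both groups were tight, with an SD of 0.366 TPM in WT and 0.309 TPM in KO, and the KO mean was 52.3% of WT. With a log2 fold change of -0.81 ± 0.12 (SE, limma adjusted p = 0.00124), Vars2 was called, but the call was lost without WT 5, WT 8 or KO 10 (limma adjusted p from 0.00574 to 0.00702). Exons of Gm20483, an antisense gene, overlap 465 bp of its exons. Its promoter window, printed above, held GCATGCGC and none of the other 4 motifs searched.

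**Figure D2:**
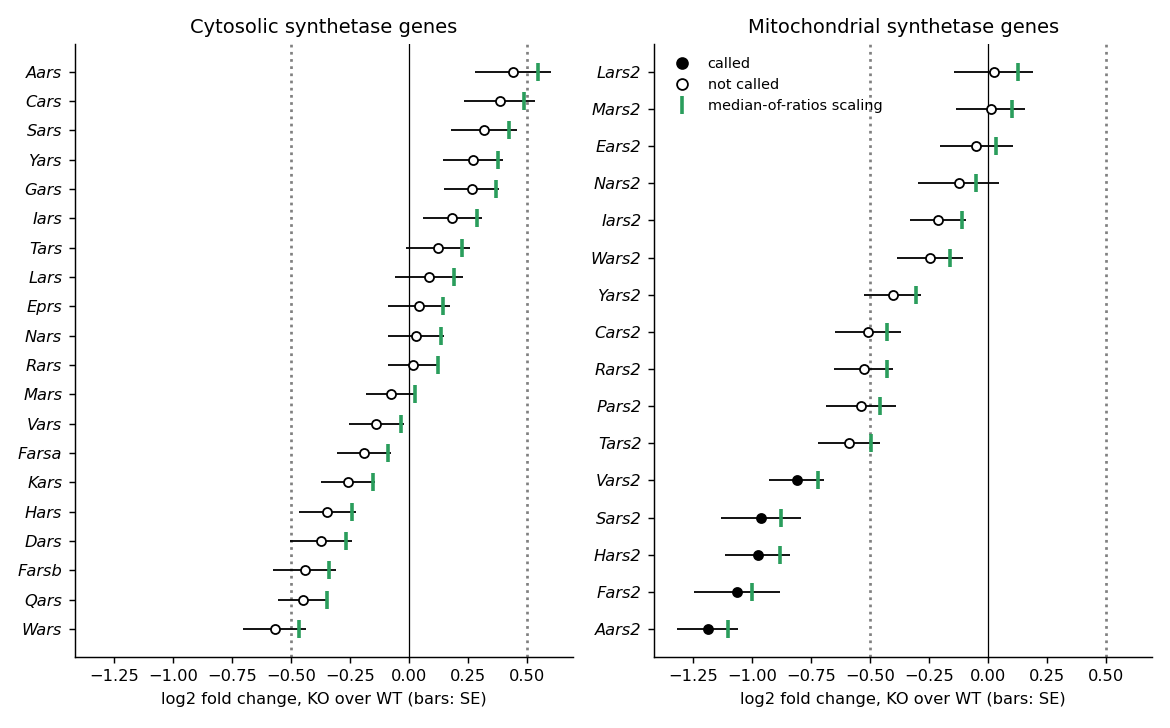
Fold change between KO and WT, as log2 of TPM + 1, for each synthetase gene, cytosolic on the left and mitochondrial on the right. Bars are the limma SE, filled points are called genes, dotted lines mark a change of 0.5 in size and green ticks give the value with median-of-ratios scaling. The 5 filled points are all mitochondrial and lie between -1.19 and -0.81, whereas the cytosolic points spread from -0.57 to 0.44.

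A further group of mitochondrial members stood lower in KO without reaching the call. Tars2, the threonyl enzyme (chr3:95739976-95760206, minus strand), measured 11.8, 11.1 and 11.7 TPM in WT and 6.15, 8.55 and 7.46 TPM in KO (log2 fold change -0.59 ± 0.13, SE, limma adjusted p = 0.00969). Rars2, the arginyl enzyme (chr4:34614957-34660167, plus strand), measured 18.9, 18.7 and 16.2 TPM in WT and 11.6, 14.0 and 10.9 TPM in KO (log2 fold change -0.53 ± 0.13, SE, limma adjusted p = 0.0129). In both genes every KO sample was below every WT sample. Cars2, Pars2 and Yars2 had log2 fold changes of -0.51, -0.54 and -0.40 with limma adjusted p of 0.0247, 0.0242 and 0.0327, again without overlap of the groups. Wars2 did not overlap either, at 5.11 to 5.52 TPM in WT and 3.58 to 4.81 TPM in KO, with a log2 fold change of -0.25. In all, the groups did not overlap, with KO lower, in 11 of 16 mitochondrial members (68.8%) and in 5 of 20 cytosolic members (25%), against 29.9% of all genes tested. KO lay wholly above WT in 0 of 36 members, against 13.3% of all genes tested.

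The median log2 fold change was -0.52 over the 16 mitochondrial members and 0.02 over the 20 cytosolic members, beside -0.07 over all genes tested. With median-of-ratios scaling, which sets the libraries on the typical gene, the 3 medians were -0.43, 0.13 and 0.02, so each moved up by about the same amount. That scaling called 4 of 16 mitochondrial members lower and none of the cytosolic members, against 9.73% of all genes lower and 3.2% higher. The voom test on recovered whole reads called 8 mitochondrial members lower, adding Cars2, Rars2 and Tars2, and 1 cytosolic member, Wars, against 14.5% of all genes lower and 2.93% higher. No member was called higher by either. With no filter on low values, under which 1.06% of all genes were called lower, Aars2 alone remained called (limma adjusted p = 0.00465, the highest over its alternatives, which began at 5.74e-05), while Fars2, Hars2, Sars2 and Vars2 had adjusted p from 0.00758 to 0.0188.

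Leaving out 1 sample at a time lowered the count of mitochondrial members called to 2 without WT 5, WT 8 or KO 3, to 3 without KO 7 or KO 10 and to 4 without WT 4. The share of all genes called lower fell with it, to between 4.16% and 6.34%. The median over the mitochondrial members stayed between -0.56 and -0.45 in those fits. At a limma adjusted p under 0.05, without the fold threshold, 10 of 16 mitochondrial members were lower and 0 higher, and 3 of 20 cytosolic members (Qars, Wars and Farsb) were lower and 0 higher, against 20.7% of all genes lower and 7.14% higher. At an unadjusted limma p under 0.05 the counts were 10 lower and 0 higher for mitochondrial members and 6 lower and 4 higher for cytosolic members, against 27.2% of all genes lower and 12.2% higher.

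Of the 5 mitochondrial members that fell, 4 were class II enzymes, the fold shared by the alanyl, histidyl, phenylalanyl and seryl enzymes. Of the 7 class II members, 4 were called, with a median log2 fold change of -0.96. Of the 9 class I members, Vars2 alone was called, with a median of -0.25. The background was 9.03% called lower over all genes and 13.7% in the level range of these members without Lars2, and the class I count lay near it. Among the cytosolic members the medians were 0.02 for the 9 of class I and -0.08 for the 10 of class II, a smaller gap in the same order. The difference between classes was not tested.

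The 5 mitochondrial members with little difference between the groups were Ears2, Iars2, Lars2, Mars2 and Nars2, in which WT and KO samples overlapped. Iars2, the isoleucyl enzyme, measured 36.8, 31.8 and 30.0 TPM in WT and 25.5, 30.8 and 28.3 TPM in KO (log2 fold change -0.21 ± 0.12, SE, limma adjusted p = 0.213). Of its exons, 22.9% overlap those of Rab3gap2 on the opposite strand. Mars2, the methionyl enzyme, had means of 6.16 TPM in WT and 6.19 TPM in KO and a log2 fold change of 0.01 ± 0.15 (SE). Ears2, the glutamyl enzyme, had one of -0.05 ± 0.15 (SE), which became 0.03 with median-of-ratios scaling. The SE is not a limit of detection, since Tars2, at -0.59 ± 0.13 (SE), was not called either. The lack of a call in these genes does not show that their levels were equal.

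Lars2 (chr9:123366927-123462666, plus strand) stood apart in level and in how it varied. It measured 306, 299.9 and 409 TPM in WT and 407, 272 and 355 TPM in KO, with a log2 fold change of 0.02 ± 0.17 (SE, limma adjusted p = 0.938). Its highest samples were WT 8 and KO 3, the libraries in which Gm23935 took 24.3% and 25.6% of all TPM, and its lowest was KO 7, where Gm23935 took 15.5%. Other members went the other way, since KO 3 was the lowest KO sample in 20 of 20 cytosolic and 13 of 16 mitochondrial members. This order of the KO samples was general, as KO 3 was lowest in 76.2% of all genes tested. The part of Gm23935 in the Lars2 values was not tested. Because Lars2 outweighs the rest, sums over the mitochondrial members are given with and without it, a choice made after its values were seen.

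Among the cytosolic members, those with the lowest KO values relative to WT were Wars, Qars and Farsb. Wars, the tryptophanyl enzyme (chr12:108860030-108894174, minus strand), measured 73.4, 88.6 and 74.6 TPM in WT and 44.4, 60.9 and 53.8 TPM in KO. The groups did not overlap, and the log2 fold change of -0.57 ± 0.13 (SE) passed the fold threshold but not the limma adjusted p of 0.005 (0.0119). With the voom test Wars was called (limma adjusted p = 0.00105), and over its alternatives the adjusted p ran from 0.000396 to 0.0465. Wars is induced by interferon-gamma in many cells. Qars, the glutaminyl enzyme (chr9:108507706-108515941, plus strand) and a part of the multisynthetase complex, measured 55.1, 49.5 and 47.3 TPM in WT and 33.9, 38.5 and 38.0 TPM in KO. Its groups did not overlap, and the log2 fold change was -0.45 ± 0.10 (SE, limma adjusted p = 0.0116). Farsb had a log2 fold change of -0.44 ± 0.13 (SE, limma adjusted p = 0.0349), against -0.19 ± 0.11 (SE) for Farsa, the other subunit gene of the same enzyme. Dars, at -0.37, and Hars, at -0.35, were the other cytosolic members without overlap.

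At the other end stood Aars, the alanyl enzyme of the cytosol, which was singled out after its values were seen. It measured 83.6, 121 and 102 TPM in WT and 114, 160 and 141 TPM in KO, so the groups overlapped through WT 5 and KO 3. The log2 fold change was 0.44 ± 0.16 (SE, limma adjusted p = 0.0678) and 0.54 with median-of-ratios scaling (limma adjusted p = 0.0249), with an adjusted p from 0.00796 to 0.200 over its alternatives. Of the exons of Aars, 14.3% are shared with those of Exosc6 on the same strand. Cars, Sars, Yars and Gars followed with log2 fold changes of 0.38, 0.32, 0.27 and 0.26, none of them called. Gars, the glycyl enzyme and one of the highest members (chr6:55038007-55079500, plus strand), measured 283, 332 and 290 TPM in WT and 317, 404 and 370 TPM in KO (limma adjusted p = 0.121). Nars, the asparaginyl enzyme, measured 304, 352 and 303 TPM in WT and 281, 361 and 339 TPM in KO, with a log2 fold change of 0.03 ± 0.12 (SE, limma adjusted p = 0.876).

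The 8 cytosolic members of the multisynthetase complex had a median log2 fold change of -0.03 and the 12 outside it 0.08. None of either was called. Within the complex the values ran from -0.45 (Qars) to 0.18 (Iars). Kars, which serves both compartments, had a log2 fold change of -0.26 and overlapping groups.

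The cytosolic members differed in how they varied among the WT samples, a split that was noticed after the values were seen. In 13 of the 20 the highest WT sample was WT 5, and in the other 7 (Dars, Farsa, Farsb, Hars, Kars, Qars and Rars) it was WT 4. Over all genes tested WT 5 was highest in 41.1% and WT 4 in 49.8%. The 13 had log2 fold changes of KO over WT with a median of 0.12, and 3 of them were negative. The 7 had a median of -0.35, and 6 of them were negative. The WT samples enter both measures, so these are not independent. Among the 28 genes of the integrated stress response list, WT 5 was the highest WT sample in 24.

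**Figure D3:**
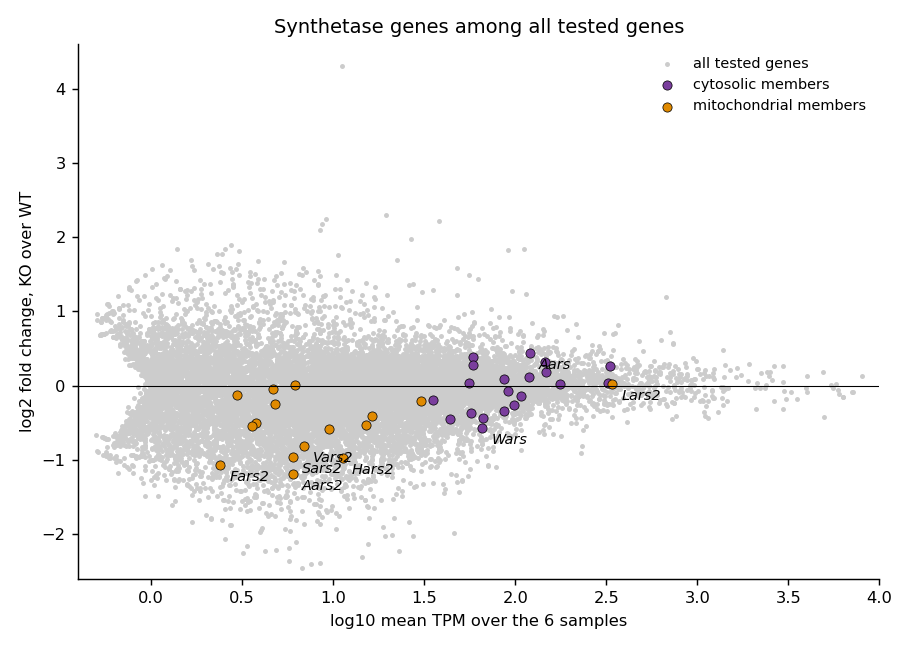
Log2 fold change (KO over WT) against the log10 mean TPM over the 6 samples, for all tested genes (grey), cytosolic members (purple) and mitochondrial members (orange). Genes beyond the ends of the axes are not drawn. The 5 called mitochondrial members lie among many low genes with negative values, while the cytosolic members lie at higher levels, where the grey cloud is narrower.

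For 13 amino acids both compartments have one listed gene of their own, which allows the compartments to be set side by side within an amino acid. In 11 of 13 the log2 fold change of the mitochondrial gene was below that of the cytosolic gene. The gap was widest for alanine, at -1.63 (mitochondrial minus cytosolic), followed by serine at -1.28 and cysteine at -0.89. In WT, the mean level of Aars was 11.7 times that of Aars2, and in KO it was 42.4 times. For serine the ratio of Sars to Sars2 went from 15.6 in WT to 43.2 in KO, and for cysteine that of Cars to Cars2 from 11.02 to 22.6. For valine and histidine both genes had negative values, and the ratio of levels went from 12.4 to 21.6 and from 6.31 to 10.4. The exceptions were methionine, with a gap of 0.09, and tryptophan, with one of 0.32, since Wars stood lower than Wars2. Leucine was the one amino acid whose mitochondrial gene was the higher one, with a ratio of Lars to Lars2 of 0.247 in WT and 0.259 in KO. The pairs share the same 6 libraries, and the gaps were not tested.

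**Figure D4:**
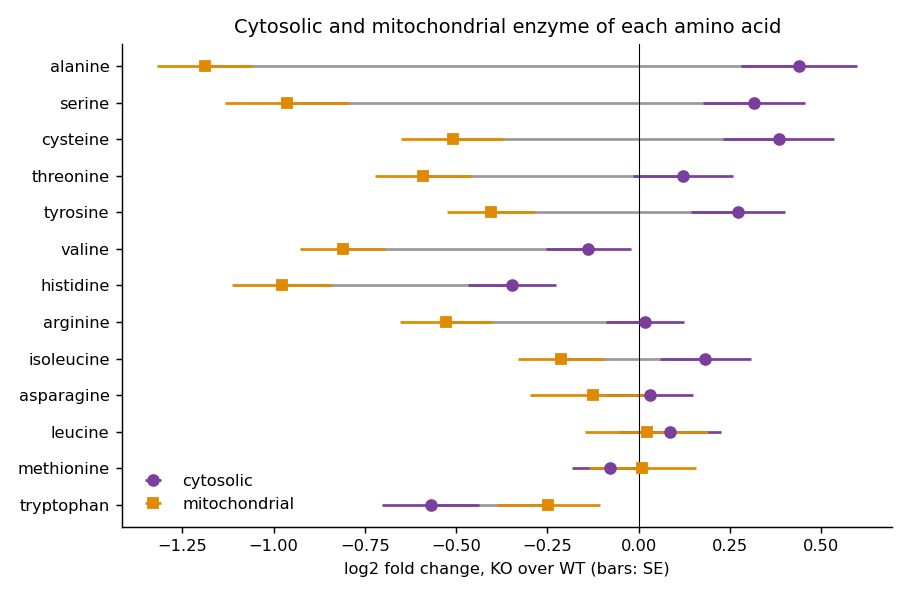
KO against WT as a log2 fold change for the cytosolic (circles) and mitochondrial (squares) synthetase gene of each of 13 amino acids, with the limma SE as bars, ordered by the gap between them. The squares lie to the left of the circles in 11 of 13, with the widest gap at alanine (-1.63), and to the right for methionine and tryptophan.

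Summed levels also differed between the compartments. The 20 cytosolic members summed to 2240 ± 160 TPM in WT and 2311 ± 298 TPM in KO (SD, n = 3 each), and these sums overlapped. The mitochondrial members other than Lars2 summed to 161, 157 and 145 TPM in WT and to 94.1, 118 and 104 TPM in KO, without overlap and with the KO mean at 68.3% of WT. The sum of the cytosolic members was 13.6, 15.4 and 14.6 times that of the mitochondrial members without Lars2 in WT samples 4, 5 and 8. It was 21.1, 21.8 and 22.8 times in KO samples 3, 7 and 10, again without overlap, and this ratio does not move with the scaling of a library. With Lars2 included, the mitochondrial sum was 493 ± 53.6 TPM in WT and 450 ± 56.2 TPM in KO (SD, n = 3 each), and the groups overlapped.

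**Figure D5:**
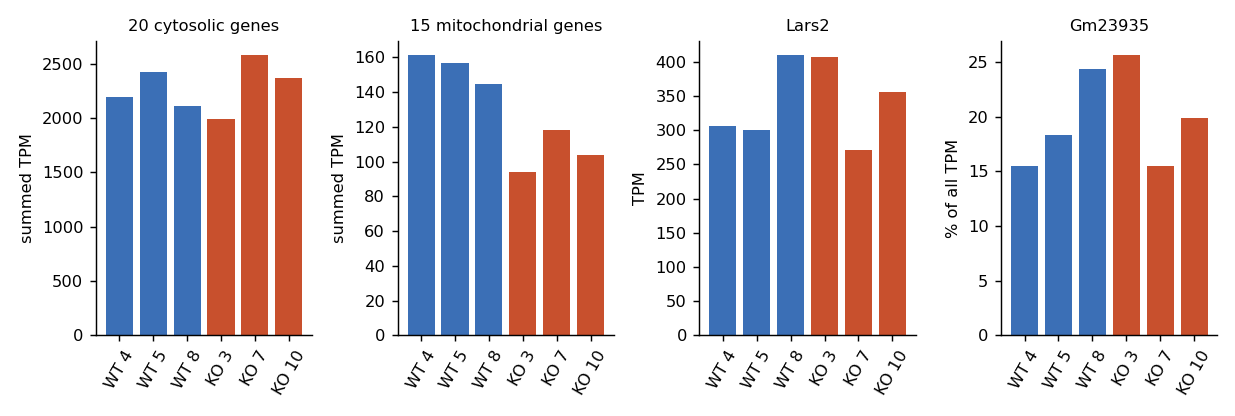
Summed TPM of the 20 cytosolic genes, summed TPM of the 15 mitochondrial genes without Lars2, TPM of Lars2 and the percentage of all TPM taken by Gm23935, with 1 bar for each sample (WT blue, KO red, axes from 0). The KO bars of the 15 mitochondrial genes (94.1 to 118 TPM) are all below the WT bars (145 to 161 TPM). Lars2 and Gm23935 are both highest in WT 8 and KO 3.

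Companion genes of tRNA charging and use were summarised from lists written with earlier results of these data known. Calls of the limma fit were read against the same backgrounds of 9.03% called lower and 1.64% called higher. Mitochondria make glutaminyl-tRNA indirectly, through an amidotransferase, and formylate the initiator methionyl-tRNA. Of the 4 genes of these steps 1 fell, Qrsl1, the catalytic subunit, from a mean of 6.66 to 3.18 TPM (log2 fold change -0.88 ± 0.14, SE, limma adjusted p = 0.00197). Gatb, Mtfmt and Gatc had log2 fold changes of -0.70, -0.51 and -0.39, and in all 4 genes the groups did not overlap, against 29.9% of all genes tested. Of the 4 genes listed as mitochondrial elongation factors 2 fell, of which Gfm2 acts in ribosome recycling. Gfm1 measured 47.6, 42.7 and 35.6 TPM in WT and 17.1, 20.9 and 20.6 TPM in KO (log2 fold change -1.06 ± 0.13, SE, limma adjusted p = 0.000648). Gfm2 went from a mean of 6.01 to 3.19 TPM (log2 fold change -0.75, limma adjusted p = 0.00421), and Tufm and Tsfm had values of -0.40 and -0.31. The 5 cytosolic elongation factor genes had a median of 0.18, and none was called (1 higher at an unadjusted limma p under 0.05, and 0 by voom). With voom, 3 of the 4 amidotransferase and formyltransferase genes were lower, against 14.5% of all genes. Of the 4 genes listed as mitochondrial elongation factors, 2 were lower with voom.

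Of 27 tRNA maturation and export genes 8 fell and none rose, with a median log2 fold change of -0.27. They included Rpp30 and Rpp21, subunits of RNase P and related complexes, at -1.22 and -0.85, and Tsen15, of the tRNA splicing endonuclease, at -0.83 (limma adjusted p from 0.000379 to 0.00216). Of 54 tRNA modification genes tested 9 fell and none rose, with a median of -0.39. Trmt2b, a mitochondrial methyltransferase, had a log2 fold change of -1.41, Adat2, of the wobble adenosine deaminase, one of -1.39, Elp4, an Elongator subunit, one of -1.32 and Trmt44, a tRNA methyltransferase, one of -0.97 (limma adjusted p from 0.000279 to 0.00138). With median-of-ratios scaling 14 of the modification genes were lower and 1 higher (9.73% and 3.2% of all genes), and with voom 20 were lower (14.5% of all genes). Of 6 genes for selenocysteine charging and decoding 1 fell, Sepsecs, which completes selenocysteinyl-tRNA, at -0.84 (limma adjusted p = 0.0041), and 2 were lower with median-of-ratios scaling (9.73% of all genes) and 3 with voom (14.5%). None of the 6 tested editing genes and none of the 3 scaffold genes of the multisynthetase complex was called, with medians of -0.23 and -0.16. At an unadjusted limma p under 0.05 the editing genes had 1 higher and 3 lower and the scaffold genes 1 lower, against 12.2% of all genes higher and 27.2% lower. Voom called 2 editing genes lower (14.5% of all genes), and median-of-ratios scaling 1 lower and 1 higher (9.73% and 3.2% of all genes).

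None of the 28 genes of the integrated stress response list was called, while the groups did not overlap, with KO higher, in 7, against 13.3% of all genes tested. At an unadjusted limma p under 0.05, 8 of the 28 were higher and 0 lower, against 12.2% of all genes higher and 27.2% lower, and voom called 2 higher, against 2.93% of all genes. The median was 0.24, and 0.34 with median-of-ratios scaling. Atf4 itself measured 263, 325 and 265 TPM in WT and 258, 358 and 333 TPM in KO, with overlapping groups and a log2 fold change of 0.15 ± 0.14 (SE). Ddit3 measured 17.4, 31.8 and 24.4 TPM in WT and 36.3, 50.9 and 41.7 TPM in KO (log2 fold change 0.81 ± 0.20, SE, limma adjusted p = 0.0155). The exons of Ddit3 overlap those of the member Mars by 68 bp on opposite strands.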

How the data were processed

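Libraries were made from 2 μg RNA per sample. Per the study's methods, the authors used STAR for alignment to mm10 and DESeq2 for testing. The submitters' processing notes name Bowtie 0.12.2 instead, and the counting program and strand setting are not given in the sources used here. The authors deposited expression as TPM for 26898 genes in 6 samples, 3 WT and 3 KO by their titles. Columns with the log2 fold change and the adjusted p-value of each gene, as the authors deposited them, were not used. In each library the TPM values checked were whole multiples of 1 read (100% within 0.05 of a whole number), which gave the recovered reads.

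The 14799 genes whose mean reached 1 TPM in WT or in KO were fitted on log2(TPM + 1) with limma 3.58.1 in R 4.3.3, with a variance trend and Benjamini-Hochberg adjustment over all of them. The study's thresholds, an adjusted p under 0.005 and a log2 fold change beyond 0.5, defined a call. The fit was also run on simulated reads with the same extra spread for every gene, a simpler setting than these data. No result given here rests on that run. Alternatives were no filter, a mean of at least 10 TPM, a pseudocount of 0.1, median-of-ratios scaling, voom on recovered reads with library size as the one scaling, no variance trend, other thresholds and leaving out each sample. Gene positions and exon overlaps came from GENCODE M21 (GRCm38) and promoter windows from RefSeq.

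The members and lists were chosen with earlier results of these data known. Values per sample are given for every called member, the 4 other members with the smallest adjusted p and the 2 of highest mean in each compartment, and up to 4 called genes are named in each companion list. Other genes with values are named as examples chosen after their values were seen.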

Additional observations from a re-analysis of the deposited data

How the results depend on the processing

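In the fits on all 6 samples, 258 values of single members under an alternative kept their direction and side of the threshold, 11 passed it newly, 6 no longer passed and 2 turned sign, namely Mars at 0.0254 and Ears2 at 0.0340, both with median-of-ratios scaling. The count of mitochondrial members called lower was 5. It was 1 (Aars2) with no filter on low values. With a mean of at least 10 TPM, which left out Aars2, Fars2, Sars2 and Vars2, it was 2. It was 8 with voom and 9 at an adjusted p under 0.05 with the fold threshold kept. The share of all genes called lower, 9.03%, was 1.06%, 12.1%, 14.5% and 16.6% in these settings. With no variance trend 4 were called, without Sars2, against 7.76% of all genes. The count of cytosolic members called lower was 0. It was 1 (Wars) with a mean of at least 10 TPM, with voom and at an adjusted p under 0.05 with the fold threshold kept. The mitochondrial median was -0.40 with a mean of at least 10 TPM, where fewer genes were tested.

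With 1 sample left out, the mitochondrial count ran from 2 to 4 and the cytosolic median log2 fold change from -0.0490 to 0.113, below 0 without WT 8, KO 7 or KO 10. Single members near 0 turned sign in 20 such values. The log2 fold change ran from -0.0530 to 0.176 for Eprs, -0.0283 to 0.229 for Lars, -0.0451 to 0.135 for Nars, -0.0469 to 0.0914 for Rars, -0.167 to 0.0490 for Ears2, -0.107 to 0.183 for Lars2, -0.0687 to 0.123 for Mars2 and -0.207 to 0.0209 for Nars2. Fewer samples enter those fits, and the cause of the other changes was not tested. No paired analysis was possible because none of the KO numbers (3, 7 and 10) occurs among the WT numbers (4, 5 and 8). Few reads limit several of the low mitochondrial members, such as Fars2 (33 to 184 reads per sample) and Pars2 (53 to 125).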
